A study of Canis lupus familiaris with 2 samples.

Results

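Unplaced sequences are stretches of the dog genome build canFam3 that are not assigned to a position on a chromosome. They were chosen by name, as all sequences in the files other than chromosomes 1 to 38, chromosome X and mitochondrial DNA, and they needed at least 20 CpG sites with 5 or more calls in both libraries. That gave 2853 sequences out of 3201 unplaced and 3241 named sequences in all. A CpG site is a pair of neighbouring cytosines, 1 on each strand, with their calls added. A lone cytosine, whose partner neither library listed, was kept as a site of its own. Of all listed unplaced sites, 82.5% had both cytosines. Values of a sequence at 1 position of the pair use the sites with 5 or more calls there in both libraries. A lone cytosine of either strand counts as the first position. The members held 876030 sites, 70.8% of the sites listed for them. The data are whole-genome bisulfite calls from MDCK cells, an established epithelial line from dog kidney. One culture was treated with TGF-beta at 5 ng/ml for 30 days and is labelled mesenchymal. The other was untreated, was kept in culture for the same 30 days, and is labelled epithelial. Each group has 1 library, so the differences have no replicates behind them.

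DNA methyltransferases add methyl groups to cytosine, mostly at CpG, and bisulfite converts unmethylated cytosine only, so each read base is a methylated or an unmethylated call. Unplaced parts of mammalian assemblies are known to be rich in repeated DNA, such as satellite arrays, ribosomal RNA gene arrays and recent duplications, in which many genomic copies can share 1 assembled sequence. Such repeats are usually methylated in mammalian cells, and ribosomal RNA genes exist in methylated and unmethylated copies. Which of these a given sequence holds was not determined here, because no sequence or annotation of this build was used. TGF-beta is a growth factor that moves epithelial cells towards a mesenchymal state.

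Over all members the summed level was far lower in the TGF-beta library, but the average site was not. The summed level is the methylated calls over all calls, so that deeply read sites count more. It was 60.3% (60.3 to 60.3) in the TGF-beta library, over 63682922 calls, and 71.7% (71.7 to 71.8) in the control, over 47015027 calls. That is a difference of -11.4 percentage points. The mean of site levels, in which each site counts once, was 53.4% in the TGF-beta library and 52.9% in the control, higher by 0.579 points. The ranges in parentheses are 95% confidence limits from the exact binomial method. They take in counting error alone, and reads copied by PCR are not independent molecules. On the autosomes the summed level was 67.4% in the TGF-beta library and 65.9% in the control, and the mean site level 64.9% and 64.5%. The unplaced sequences were thus less methylated per site than the autosomes in both libraries, while in the control their summed level was above that of the autosomes.

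Counted site by site, the lower summed level lay almost wholly in where the calls fell. With the site levels of the TGF-beta library and the number of calls per site of the control, the summed level would be 71.5%. With the site levels of the control and the calls of the TGF-beta library it would be 60.1%. Splitting the difference over sites gave -11.4 points from unequal shares of calls and -0.0127 points from unequal levels. The level part is a net value, with parts between -0.177 and 0.121 points in classes of site level. Split over whole sequences instead, -10.02 points came from shares of calls and -1.40 points from levels, since the level of a sequence itself depends on where its calls fall. On autosomes and X the same split gave 1.32 points from shares of calls and 0.326 points from levels.

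Sites at low and intermediate levels had many more calls in the TGF-beta library, and sites at high levels did not. Sites were classed by the mean of their levels in both libraries. Those under 20% had 2.16 TGF-beta calls for each control call, those at 20% to 40% had 2.19, and those at 40% to 60% had 2.10. The ratio was 1.63 at 60% to 80% and 0.980 at 80% or more. Sites at 80% or more made up 33.8% of the sites, but took 46.5% of the calls in the TGF-beta library and 64.3% in the control. Sites under 20% made up 25.5% of the sites and took 21.8% of the TGF-beta calls and 13.7% of the control calls. Of the -11.4 points, the class under 20% gave -4.54, that at 20% to 40% gave -1.63, and that at 80% or more gave -4.82. On autosomes and X the ratio of calls ran from 1.49 under 20% to 1.64 at 80% or more.

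**Figure D1:**
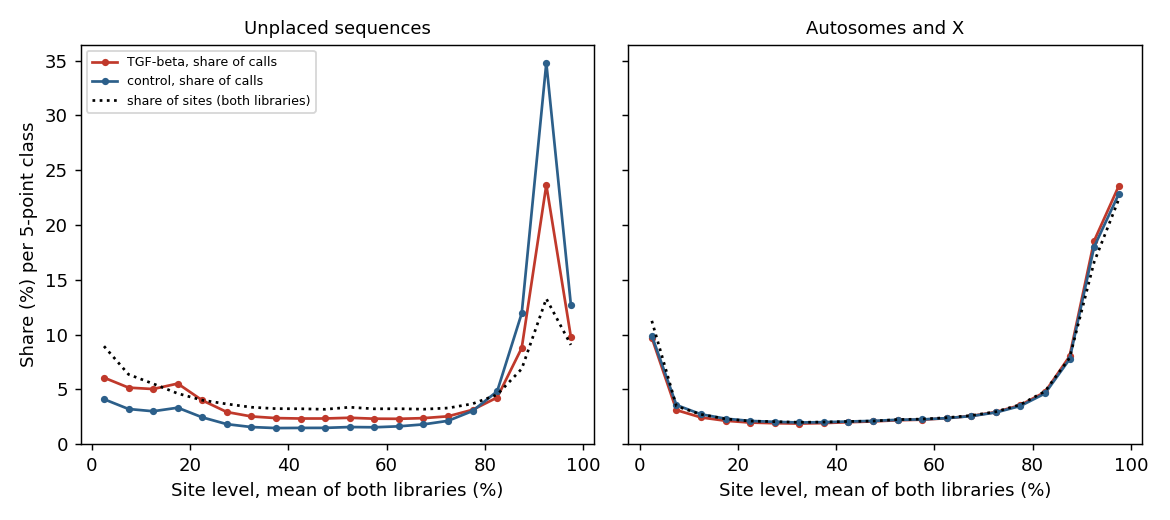
Share of calls per 5-point class of site level (x axis, mean of both libraries, %) in the TGF-beta library (red) and the control (blue), with the share of sites dotted, for unplaced sequences (left) and for autosomes and X (right). In unplaced sequences the control places 64.3% of its calls at sites of 80% or more and the TGF-beta library 46.5%, while on autosomes and X the curves of the libraries nearly coincide.

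No single sequence accounted for the lower level. Each sequence was given a contribution in the split over sequences, the sum of a level part (its mean share of calls times its level difference) and a weight part (the difference in its share of calls times the distance of its level from the pooled level). Of 2853 members, 2397 contributed negatively, with a sum of -11.9 points, and 456 positively, with a sum of 0.488 points. The most negative 71 made up at least 50% of the negative sum. The largest contribution, from chrUn_JH373485, was -0.851 points. Contributors were left out in order of size, which favours a smaller difference by construction. Without the first the summed levels were 62.0% in the TGF-beta library and 72.9% in the control, still -10.9 points apart. Without the 10 largest contributors the difference was -10.8 points, without 100 it was -9.22, without 300 it was -4.58, and without 500 it was -0.614. Those 500 held 84.7% of the TGF-beta calls and 89.6% of the control calls. The difference in mean site level lay between 0.350 and 0.721 points in each step up to 1000 sequences left out.

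**Figure D2:**
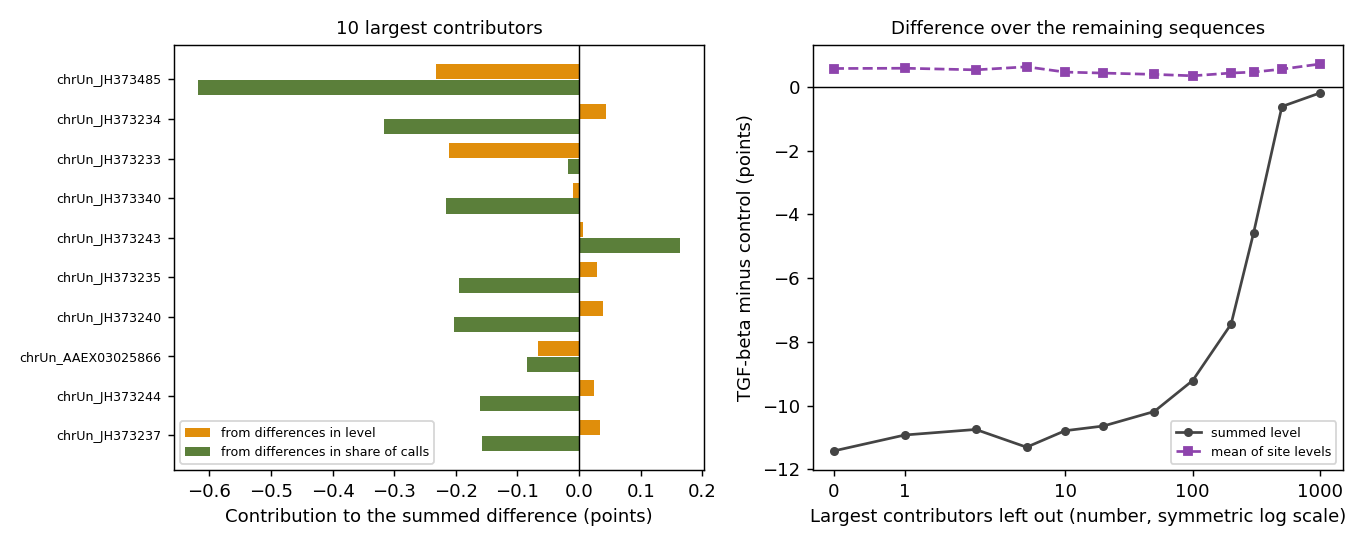
Left, the 10 sequences with the largest absolute contribution to the summed difference (x axis, points), split into a part from levels (orange) and a part from shares of calls (green). Right, the difference (TGF-beta minus control, points) in summed level and in mean site level after leaving out the largest contributors (x axis, symmetric log scale), which goes from -11.4 to -0.614 points for summed calls with 500 left out and stays above 0 for the mean of site levels.

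The 10 largest contributors were of several kinds. Besides chrUn_JH373485, described further on, 6 of them were at low methylation with a larger share of the calls in the TGF-beta library. chrUn_JH373234 gave -0.273 points, chrUn_JH373235 -0.165, chrUn_JH373240 -0.164, chrUn_JH373244 -0.136 and chrUn_JH373237 -0.123, with chrUn_AAEX03025866 at -0.152. In 5 of these 6 the level itself was higher in the TGF-beta library, so that the level part was above 0 and the weight part below it. chrUn_AAEX03025866 had both parts below 0. In chrUn_JH373340 the share of calls was smaller in the TGF-beta library. It was at 88.7% in the TGF-beta library and 89.4% in the control, its share of all calls of members was 0.980% and 1.92%, and it gave -0.226 points. chrUn_JH373233, the member with most sites, gave -0.230 points, of which -0.211 lay in its level. The only positive one was chrUn_JH373243, with 21988 sites over 573 kb. It was highly methylated, at 87.4% in the TGF-beta library and 87.1% in the control, and had 2.24 TGF-beta calls for each control call, which gave 0.169 points.

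Grouped by level, the sequences at both ends carried most of the difference. Classes use the mean of both libraries' summed levels. The 846 members under 40% contributed -4.32 points, the 1471 at 40% to 60% -1.50, the 221 at 60% to 80% -0.617, and the 315 at 80% or more -4.99. Within a class the libraries were closer. Members under 40% were at 33.0% in the TGF-beta library and 32.2% in the control, and members at 80% or more were at 88.3% and 89.8%. The gap was wider between these ends. Members at 40% to 60% were at 48.3% in the TGF-beta library and 51.2% in the control, and those at 60% to 80% at 66.4% and 73.3%. Calls summed over the class gave 2.50 TGF-beta calls for each control call under 40%, 1.73 at 40% to 60%, 1.34 at 60% to 80% and 0.903 at 80% or more. Across the 2853 members the ratio and the level had r = -0.54 (rho = -0.48), a description of sequences that share the same 2 libraries. Over 228321 bins of 10 kb on autosomes and X, r was 0.16.

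CpG density was related to the ratio differently from the chromosomes among highly methylated members. On autosomes and X, bins at 80% or more had 1.22 TGF-beta calls for each control call with under 10 listed sites per kb and 2.17 with 40 or more. In the 31 members of that level with under 10 sites per kb the ratio was 1.23, and in the 186 members with 40 or more it was 0.864. Between them the ratios did not run in order, with 0.918 in 30 members at 10 to 20 and 1.06 in 68 at 20 to 40. Medians over members of these classes, from under 10 upwards, were 1.32, 1.51, 0.916 and 0.865. Members at 80% or more were dense, with a median of 50.7 listed sites per kb, against 15.4 in members under 40%. At 10 to 20 sites per kb and under 40%, the 489 members had a ratio of 2.63, against 1.62 in placed bins of that kind. These are summed ratios from 1 library per group, with no test.

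**Figure D3:**
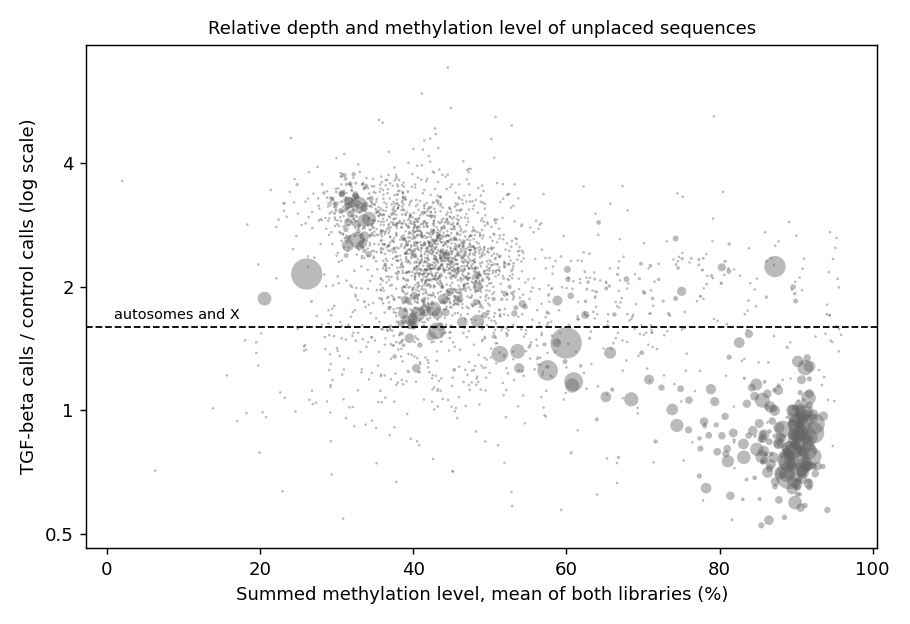
Ratio of TGF-beta to control calls (y axis, log scale) against summed methylation level (x axis, mean of both libraries, %) for the 2853 unplaced sequences, with point area by control calls up to a fixed maximum and the ratio over autosomes and X (1.59) as a dashed line. Large sequences under 40% lie above the line, most sequences near 90% lie below it, and the large point near 87% above the line is chrUn_JH373243.

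The same effect of shares of calls was seen within single sequences. chrUn_JH373233 was at 57.4% (57.4 to 57.5) in the TGF-beta library and 62.5% (62.5 to 62.6) in the control, over 39827 sites, a difference of -5.08 points. It had a deep, highly methylated far end. There 2591 sites were at 90.1% in the TGF-beta library and 90.2% in the control, with 359 and 325 calls per site. The 37236 sites before it were at 40.7% and 40.1%, with 48.8 and 27.9 calls per site. That end held 33.9% of the sequence's calls in the TGF-beta library and 44.7% in the control. By summed calls each stretch differed by under 1 point, and by mean site level the end differed by -0.208 points and the rest by -1.45. The boundary was placed after the values were seen.

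Of the 145 members with at least 1000 sites, 9 (6.21%) were lower by 10 points or more by summed level, between -18.8 and -10.03 points, and none was higher by as much. Among placed bins of 10 kb, which hold far fewer sites, 3.0% were lower and 5.99% higher by that limit. Their mean site levels differed by -1.23 to 3.29 points, lower in 3 of the 9 and higher in 6. The lowest, chrUn_AAEX03019681, was at 51.2% (50.9 to 51.5) in the TGF-beta library and 70.0% (69.6 to 70.4) in the control by summed calls. Its mean site level was 54.2% and 52.7%, with gains of 1.74 and 1.54 points at the positions of the CpG pair. chrUn_JH373314 followed, with 45.6% against 62.9% by summed calls and 39.3% against 36.0% by mean site level. These sequences were named after their values were seen.

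**Figure D4:**
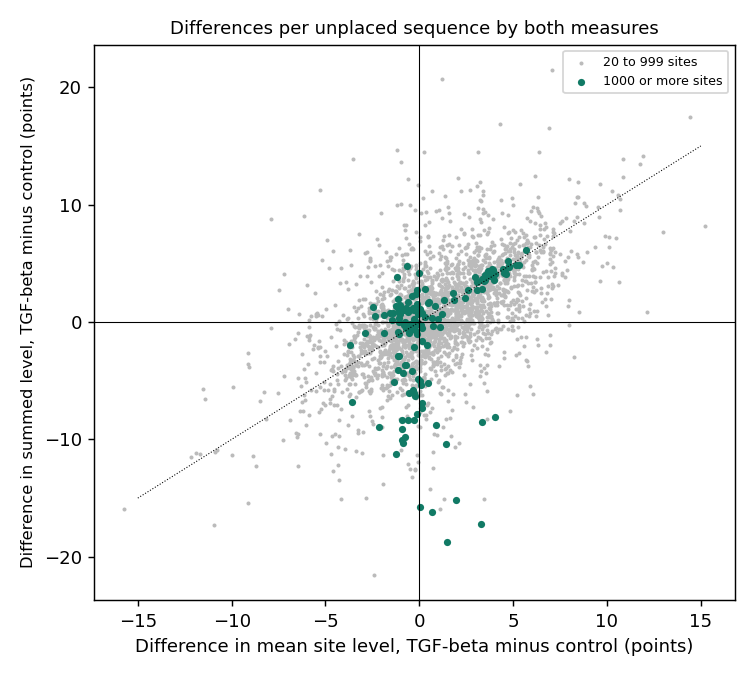
Difference in summed level (y axis) against difference in mean site level (x axis), TGF-beta minus control in points, for unplaced sequences with fewer than 1000 sites (grey) and with 1000 or more (green), and the line of equal differences dotted. Green points fall down to -18.8 points by summed calls, where mean site levels differ by -1.23 to 3.29 points.

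The long sequences of low methylation fell into kinds that differed in depth and in level. Of the members with at least 1000 sites and a level under 50%, 35 had at least 2.2 TGF-beta calls for each control call, between 2.31 and 3.57. Their mean site level had a median of 34.4% in the TGF-beta library (31.8 to 41.9) and 30.4% in the control (27.5 to 42.2). The TGF-beta library was higher in 34 of the 35, at both positions of the pair in each, and the median difference over the 35 was 3.81 points. The other 38 had ratios between 1.27 and 2.15. Their median was 40.1% in the TGF-beta library and 40.7% in the control, and the median difference was -0.777 points. Of these 38, 7 were higher, and 27 were lower at both positions. Across the 73 sequences the ratio and the difference had r = 0.81 (rho = 0.74), as a description of sequences from the same 2 libraries. The limit of 2.2 was set after the values were seen, and the part of the depth difference in the level difference was not tested.

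Examples are taken from the members named for their contribution or number of sites. Over all 35 members of the first kind the difference in mean site level ran from -0.302 to 5.68 points. chrUn_JH373234, with 15241 sites over 1881 kb, was at 33.7% in the TGF-beta library and 30.3% in the control by mean site level, with 70.0 and 22.1 calls per site. chrUn_JH373240 was at 34.5% and 30.7%, chrUn_JH373244 at 33.7% and 29.8%, and chrUn_JH373237 at 36.2% and 31.5%. Each of these 4 was higher in the TGF-beta library, by 3.45 to 4.74 points, and each was higher at both positions of the pair. Of the other kind, chrUn_JH373236, with 11130 sites, was at 39.8% in the TGF-beta library and 40.4% in the control, with 1.72 TGF-beta calls for each control call. By summed calls it was at 41.5% and 39.8%, so its measures differed in sign.

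Both kinds met within chrUn_JH373235. Its first 140000 bp held 1826 sites, with 65768 calls in the TGF-beta library and 34703 in the control, a ratio of 1.90. They were at 41.9% and 44.2% by mean site level, lower in the TGF-beta library by 2.24 points. Beyond it, 10207 sites had 660351 and 213272 calls, a ratio of 3.10. They were at 35.0% in the TGF-beta library and 30.5% in the control, higher by 4.48 points. Both positions of the pair gave the same direction in each stretch, at -1.95 and -2.01 points before the boundary and 4.87 and 4.48 after it. Single steps of 20 kb went the other way by mean site level. The first step differed by 0.595 points. The steps from 460001, 1380001 and 1400001, with 39, 45 and 58 sites, differed by -1.01, -0.530 and -0.828 points. The boundary was chosen after the values were seen.

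**Figure D5:**
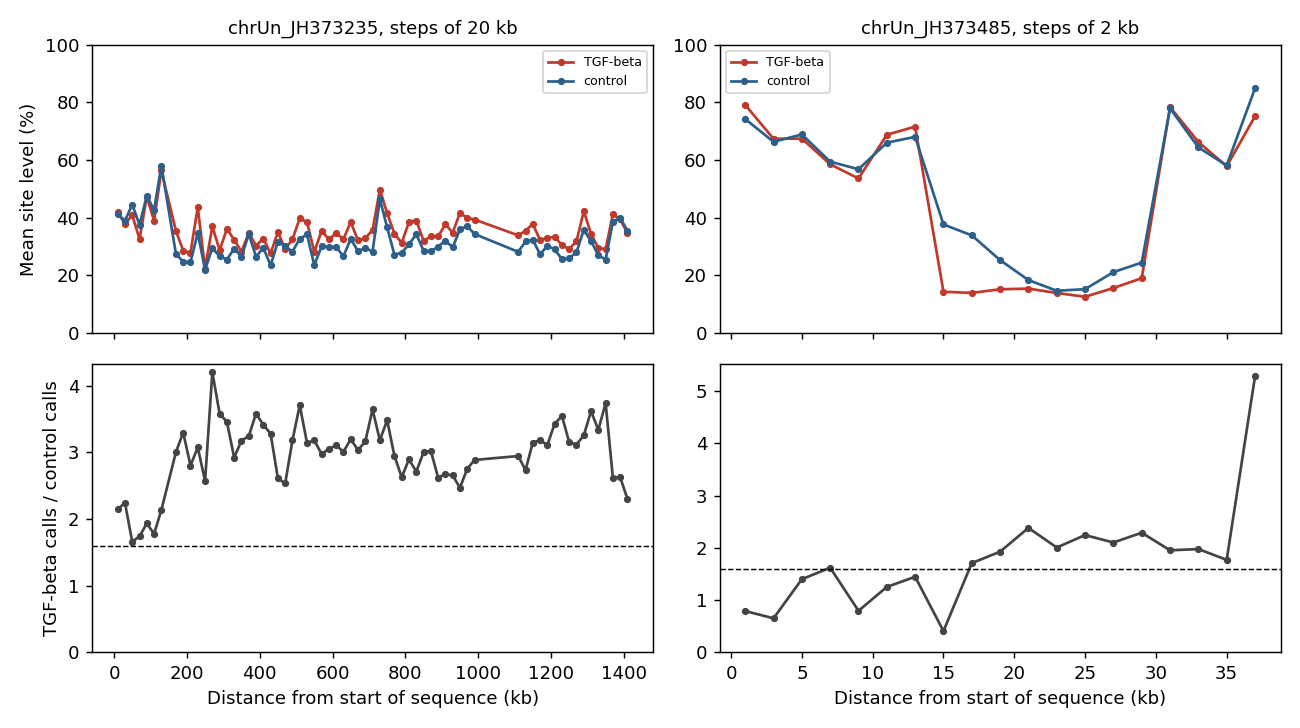
Mean site level (top, %) in the TGF-beta library (red) and the control (blue), and ratio of TGF-beta to control calls (bottom, with the autosome and X ratio of 1.59 dashed), along chrUn_JH373235 in steps of 20 kb and chrUn_JH373485 in steps of 2 kb; the x axis is the distance from the start of the sequence in kb. In chrUn_JH373235 the ratio is 1.90 over the first 140 kb and 3.10 beyond it, and in chrUn_JH373485 the levels are low between 14 and 30 kb.

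A pair of deep, CpG-dense sequences of low methylation were lower in the TGF-beta library by both measures. chrUn_JH373485, with 58.1 listed sites per kb, was the deepest member in the TGF-beta library, with 1501 calls per site against 698 in the control. It was at 22.7% (22.7 to 22.8) in the TGF-beta library and 29.5% (29.4 to 29.6) in the control by summed calls, and at 29.7% and 33.3% by mean site level. The low levels lay between positions 14000 and 30000. There 1294 sites were at 15.3% in the TGF-beta library and 20.4% in the control by mean site level, a difference of -5.09 points, with -6.87 and -3.85 points at the positions of the pair. The 260 sites before this stretch were at 65.2% and 64.7%, and the 225 after it at 71.6% and 71.4%. The stretch held 88.7% of the sequence's calls in the TGF-beta library and 86.8% in the control, and its limits were chosen after the values were seen.

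chrUn_AAEX03025866 had the highest density of all members, with 121.6 listed sites per kb over 4.65 kb. It was at 14.9% (14.80 to 15.02) in the TGF-beta library and 26.3% (26.1 to 26.5) in the control by summed calls. Its mean site level was 15.6% and 24.5%, a difference of -8.86 points, with -7.96 and -9.17 points at the positions of the pair. It had 883 calls per site in the TGF-beta library and 472 in the control. Its level and weight parts were -0.0665 and -0.0850 points.

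The other very deep members were taken from the 5 with most calls per site in each library. A choice by depth in 1 library favours a ratio of calls towards that library. chrUn_AAEX03025260 was among the deepest in both libraries. chrUn_AAEX03025333, chrUn_AAEX03023732 and chrUn_AAEX03025149 came in by control depth alone. These highly methylated members had fewer calls in the TGF-beta library. chrUn_AAEX03025260 had 1278 calls per site in the TGF-beta library and 1379 in the control, and was at 92.0% and 92.7% by summed calls. chrUn_AAEX03025333 had 561 and 727 calls per site, at 91.8% and 92.6%. chrUn_AAEX03023732 had 554 and 629, at 91.9% and 92.7%, and chrUn_AAEX03025149 had 541 and 628, at 90.8% and 91.0%. Each of these 4 had between 78.5 and 94.8 listed sites per kb, and each was lower by under 1 point by summed calls. The mean site level of chrUn_AAEX03025149 was instead higher, at 90.9% in the TGF-beta library and 90.6% in the control. By TGF-beta depth alone came chrUn_AAEX03024411, with 944 calls per site against 329, and chrUn_JH373929, with 874 against 400. These are small members, with 82 and 26 sites, so their levels rest on few sites. Their summed levels were intermediate, at 67.5% in the TGF-beta library and 60.9% in the control for chrUn_AAEX03024411, and 54.9% and 50.8% for chrUn_JH373929. Their mean site levels were closer, at 55.3% in the TGF-beta library and 53.8% in the control for chrUn_AAEX03024411 and 57.7% and 58.2% for chrUn_JH373929. In both libraries a small part of the sites took many of the calls: the deepest 1% held 18.5% of the TGF-beta calls and 21.8% of the control calls.

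Differences of single small sequences were about as large as the spread between the positions of the CpG pair, which are read from opposite strands. Among 1599 members with 20 to 99 sites and calls at both positions, the mean of the 2 positions' differences had an SD of 4.52 points, and their half-difference, which holds no change that the positions share, had an SD of 4.37 points. Among 145 members with at least 1000 sites these were 2.12 and 0.392 points. The positions had the same sign in 53.3% of the first set and 80.7% of the second. Values of small members are therefore given below only where both positions differed by 5 points or more.

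Few members differed by much. By summed level 47 members (1.65%) were higher by 10 points or more in the TGF-beta library, where 5.99% of the placed bins were, and 52 (1.82%) were lower, where 3.0% of the bins were. Using the mean site level, 17 were higher and 9 lower, 0.596% and 0.315% of the members, against 2.47% and 1.29% of the bins. At 20 points 2 members were higher and 1 lower by summed level, against 0.669% and 0.219% of the bins, and none by mean site level, against 0.392% and 0.112%. The bins are 10 kb long, while the members span a median of 9.27 kb and up to 2660 kb, and their CpG density differs. The median difference by mean site level was 0.509 points over members and 0.164 points over bins. The mean site level was higher in 1647 members and lower in 1206. Over the 228321 placed bins it was also more often higher, in 120110 against 108211 lower. The summed level was higher in 1567 members and lower in 1286. The measures had opposite signs in 452 members that were lower by summed and higher by mean site level, and in 372 with the reverse. How often the measures had opposite signs in placed bins is not given here.

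Of the 1244 members with at least 100 sites, 22 (1.77%) were higher and 5 (0.402%) lower by 5 points or more at each position. Each position was judged over its own sites with enough calls, which are not the same set as the sites of the member. The mean site level can thus differ by less than either position. Of 69137 placed bins with at least 100 sites, 3.64% were higher and 1.96% lower by that rule. The largest gain was in chrUn_AAEX03024243, with 102 sites, at 34.4% in the TGF-beta library and 24.2% in the control by mean site level. The next were chrUn_AAEX03023542, at 49.6% and 39.9%, and chrUn_AAEX03025386, at 48.7% and 39.96%. They were followed by chrUn_JH373492, at 34.8% and 28.2%, and chrUn_JH373770, at 33.6% and 27.0%. The largest loss was in chrUn_JH373638, with 204 sites, at 67.7% in the TGF-beta library and 79.7% in the control. After chrUn_AAEX03025866, described above, came chrUn_AAEX03025132, at 50.0% and 57.9% by mean site level but 61.6% and 62.0% by summed calls. The last were chrUn_JH373366, at 42.4% and 47.0% by mean site level, and chrUn_JH373488, at 30.8% and 35.1%. Over their own sites these differed by under 5 points, at -4.62 and -4.30 points. By summed calls the gain of chrUn_AAEX03023542 was smaller, at 43.4% (41.6 to 45.3) against 39.9% (37.1 to 42.8). That of chrUn_AAEX03025386 was also smaller, at 46.8% against 41.7%. chrUn_AAEX03024243 was at 35.4% and 24.2% by summed calls, chrUn_JH373492 at 36.4% and 28.5%, and chrUn_JH373770 at 32.8% and 26.8%.

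Within members, called windows of 1 kb were also a smaller share than over all windows. For windows holding 5 or more sites, summed calls were compared by Fisher's exact test (two-sided), with Benjamini-Hochberg adjustment across the 1497924 windows of placed and unplaced sequences. That test sets 1 library against the other and not the conditions. Called windows had an adjusted p under 0.05 from Fisher's exact test and differed by at least 20 points. In members 526 of 51175 windows (1.03%) were called higher and 312 (0.610%) lower, against 2.22% and 1.43% of all windows. The calls were spread over 302 and 197 sequences. The mean site level also differed by 20 points in 204 of the higher and 108 of the lower windows. In 402 and 206 of them each position alone held a difference of at least 10 points of that sign. By number, which is larger where a sequence holds more windows, chrUn_JH373237 had most higher calls, in 24 of 826 windows (2.91%). Next were chrUn_JH373234, with 19 of 1298 (1.46%), and chrUn_JH373235, with 18 of 899 (2.00%). The sequences with most lower calls were chrUn_JH373233, with 24 of 2376 (1.01%), and chrUn_JH373238, with 14 of 674 (2.08%).

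The window with the largest gain lay in chrUn_JH373311 from 69001 to 70000, with 16 sites. It was at 62.9% (59.1 to 66.6) in the TGF-beta library and 13.0% (10.2 to 16.1) in the control, over 671 and 525 calls (adjusted p = 2.45e-69, Fisher's exact test). A window of the same sequence from 60001 to 61000 was at 67.9% in the TGF-beta library and 23.9% in the control. In mean site level these windows differed by 49.5 and 36.4 points. The third gain, in chrUn_JH373233 from 2516001, was at 60.9% and 28.5% by summed calls but at 44.1% and 41.3% by mean site level. The largest loss was in chrUn_JH373298 from 35001 to 36000, with 11 sites. It was at 53.4% (49.4 to 57.4) in the TGF-beta library and 91.7% (88.7 to 94.0) in the control, over 620 and 456 calls (adjusted p = 2.22e-42, Fisher's exact test). The next was in chrUn_JH373935 from 10001, at 49.1% in the TGF-beta library and 80.9% in the control, with -26.8 points by mean site level. The third, in chrUn_JH373282 from 48001, was at 28.8% and 59.4% by summed calls and 37.2% and 42.0% by mean site level.

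Medians were similar on either side of the limit of 20 sites, while counts of members past a limit changed with the minimum number of sites, as given with the processing settings. The 92 members with 20 to 24 sites had a median mean site level of 44.9% in the TGF-beta library and 43.3% in the control, and the 87 sequences with 15 to 19 sites, just outside the rule, 44.7% and 43.8%. The median ratio of calls was 1.88 in the members and 1.82 in the sequences outside.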

How the data were processed

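The authors deposited counts of methylated and unmethylated calls per CpG cytosine, with a line for each strand and 1 library per group. The submitters' processing notes name Bismark, Bowtie 0.12.8 and canFam3, whereas the labels' protocols name SOAPaligner2. How duplicates, and reads that match several places, were treated is not given in the sources used here. Both can set depth and level in repeated sequence. The column of methylated calls was decided from mitochondrial DNA, which was at 0.329% in the TGF-beta library and 0.211% in the control.

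The TGF-beta library held 1019766599 calls and the control 656122583, of which 6.44% and 7.31% were on unplaced sequences. Neighbouring cytosines were joined into sites, and lone cytosines were kept as sites. Longer runs with an odd number of cytosines, with 0.00325% of the unplaced calls, were left out. In each file 1 line names no chromosome and was left out. Positions are as listed in the files. Density is listed sites over the span from the first to the last listed site.

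Members, classes and tests were chosen with earlier results of these data known. Named sequences are the 10 largest contributors, the 5 largest gains and losses by mean site level with at least 100 sites and 5 points at each position, the 5 deepest in each library and the 5 with most sites. Named windows are the 3 largest gains and losses with 10 sites, 200 calls in each library and 10 points at each position. Others are said to be chosen after their values were seen. The alternatives were other minimum calls and sites, single positions, capped depth, and sequences left out. The tools were scipy 1.17.1 and numpy 2.4.6 for tests and sums, pandas 2.3.3, pyarrow 21.0.0 and numba 0.67.0 for reading and joining, and matplotlib 3.10.9 for figures, under Python 3.11.15. The exact test and the split were tested on simulated data.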

Additional observations from a re-analysis of the deposited data

How the results depend on the processing

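The summed difference stayed negative under each alternative that pooled sites by their calls, apart from members under 40%. It was -11.5 points with 10 calls per site or with 100 sites per sequence, -11.4 with 1 call per site, -11.5 at the first position of the pair and -11.7 at the second. It was -10.9 points without the deepest 1% of sites and without the largest contributor, -10.8 without the 10 largest, -10.1 with scaffold names (chrUn_JH) only and -10.6 with contig names (chrUn_AAEX) only. With calls per site held to 50 it was -3.53 points, and with equal weight per sequence it was 0.504 points, opposite in sign. By construction the first setting limits the weight of deep sites. The second removes unequal weights between sequences but keeps those of sites within each sequence. The difference in mean site level was 0.516 points with 10 calls per site, 0.661 with 1 call, 0.527 with 100 sites per sequence, 0.597 without the deepest 1%, 0.466 without the 10 largest contributors, 0.545 and 0.644 with scaffold and contig names only, and 0.817 with equal weight per sequence. Within level classes, added after the data were examined, the summed difference was 0.785 points under 40%, -2.92 at 40% to 60%, -6.86 at 60% to 80% and -1.50 at 80% or more, and that in mean site level 2.25, -0.0520, -0.0780 and -0.272 points. The counts of members and windows depended on the settings. Members lower by 10 points numbered 52 of 2853 in the main setting. They numbered 9 by mean site level, 33 of the 1244 with 100 sites, 14 with 10 points at each position and 1 at 20 points. Members higher numbered 47 of 2853 in the main setting. With 10 calls per site there were 31, and 7 of the 1244 with 100 sites. By mean site level there were 17, with 10 points at each position 15, and at 20 points 2. Windows called lower in the exact test numbered 85 with 10 sites per window, 188 with 10 calls per site, 108 with 20 points by mean site level and 206 with 10 points at each position, against 312. Windows called higher numbered 177 with 10 sites per window, 319 with 10 calls per site and 204 with 20 points by mean site level, against 526. A changed minimum of calls or sites also changes how many members or windows are counted. Beyond the shares in the results, none over placed bins or all windows is given for these settings. The counts therefore do not set the members against the rest of the genome. No paired analysis was possible because each group has 1 library. Member sites had a median of 42 calls in the TGF-beta library and 21 in the control. Differences of members with 20 to 99 sites were about as large as the spread between positions, and the parts of depth and of site number in that were not told apart.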

Other observations

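The 821 members with scaffold names (chrUn_JH) and the 2032 with contig names (chrUn_AAEX) differed in level. Scaffolds were at 54.0% in the TGF-beta library and 64.0% in the control by summed calls, and contigs at 70.3% and 80.9%. By mean site level scaffolds were at 50.2% and 49.7%, and contigs at 59.6% and 58.9%. Sites of members were more often intermediate than those of autosomes and X: 40.1% lay between 20% and 80% in the TGF-beta library and 38.7% in the control, against 27.2% and 28.1% of placed sites. In members under 40%, 40.1% of sites were under 20% in the TGF-beta library and 42.8% in the control. Their median depth was 44 calls per site in the TGF-beta library and 18 in the control, and the part of depth in these shares was not tested.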
